A study of Homo sapiens with 12 samples.

Results

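The guanylate-binding protein genes GBP1, GBP2, GBP3, GBP4 and GBP5 were chosen by their measured expression across the 4 groups of the study, and are 5 of the 17589 genes in the table. Levels and fold changes of these genes are therefore given as a description without a test. Guanylate-binding proteins are large GTPases that cells make in response to interferons, above all interferon-γ, which signals through its receptor and the kinases JAK1 and JAK2. They assemble into coats on intracellular bacteria and parasite vacuoles, help inflammasomes to sense microbial products, and are used as a readout of interferon signalling in lymphocytes. GBP1, GBP2 and GBP5 end in a motif that is prenylated and anchors the protein to membranes.

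RNA was sequenced from cells that the study names as YT, a human NK-like lymphoid line, after lentiviral infection, with no stimulus added. CTRL cells carried eGFP alone. hnCD16 cells carried a high-affinity CD16a that resists cleavage. FR1 cells carried the outer part of hnCD16 joined to the signalling domains of 2B4, DAP10 and CD3ζ, and FR2 cells the same receptor with DAP10 and CD3ζ but no 2B4, so that 2B4 is the named difference between the fusion receptors. All receptors were driven by the constitutive hEF1A promoter, and in all 4 groups cells positive for eGFP had been sorted and expanded, so each group is an expanded population. Each group had 3 libraries, 12 in all. Nothing in the labels says that they came from separate cultures, and p-values then measure only the spread between these libraries.

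The libraries held 17714566 to 18729019 counts, and 3 counts correspond to 0.16 to 0.169 CPM (counts scaled to library size). FCGR3A, which encodes the CD16a part of the receptors, was listed at 0 in the 3 CTRL libraries, at 21 to 22 TPM (a level per transcript length and library size) in hnCD16, 26.4 to 26.6 TPM in FR1 and 47.9 to 52.2 TPM in FR2. Cell type markers split the libraries into CTRL with hnCD16 and FR1 with FR2. The summed level of 15 NK cell markers was 89.7 to 109 TPM in CTRL and hnCD16, where NCAM1, NCR1, KLRK1, KLRF1, PRF1, GNLY and TBX21 were under 1 TPM in all 6 libraries. In FR1 and FR2 the sum was 7430 to 8120 TPM, most of it GZMB at 5080 to 5660 TPM. There PRF1 reached 274 to 385 TPM, while NCAM1, KLRF1 and TYROBP were under 1 TPM in all 6 libraries. Against this direction, the NK cell markers CD7 and NCR3 were at 41.2 to 50 and 9.77 to 10.8 TPM in CTRL and hnCD16 and at 1.04 to 1.96 and 0 to 1.7 TPM in FR1 and FR2. The 9 T cell markers with values summed to 1550 to 1780 TPM in CTRL and hnCD16, most of it CD3D, and to 79.9 to 102 TPM in FR1 and FR2. CD3D, a subunit of the T cell receptor complex, was at 1170 to 1440 TPM in CTRL and hnCD16 and at 0.45 TPM or less in FR1 and FR2, but the costimulatory receptor CD28 was lower in the first set, at 1.04 to 1.64 against 31.6 to 45.3 TPM. B cell markers summed to 15.4 to 24.9 TPM in CTRL and hnCD16 and 8.1 to 10.2 TPM in FR1 and FR2. Of these, CD79A and CD79B were under 1 TPM in FR1 and FR2, and PAX5 was at 0 to 0.05 TPM in CTRL and hnCD16 and 7.51 to 9.44 TPM in FR1 and FR2. Myeloid markers summed to at most 11.4 TPM in any library. Both sets of libraries therefore lacked some markers of the labelled cell type, but CTRL and hnCD16 lacked more of them and also held high CD3D. Whether all groups are the same cell line was not tested. Of the 15 NK cell markers, 7 were under 1 TPM throughout CTRL and hnCD16, and 3 throughout FR1 and FR2. Wherever an FR group is set against CTRL or hnCD16, the receptor and whatever else separates these pairs of groups cannot be told apart. In such bulk samples, fewer cells that make an mRNA and less of it per cell also cannot be told apart.

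The 5 genes lie close together on chromosome 1 (GENCODE v44, GRCh38), all on the minus strand. In order of position they are GBP3 (chr1:89006679-89022894), GBP1 (chr1:89051882-89065360), GBP2 (chr1:89106132-89150456), GBP4 (chr1:89181144-89198942) and GBP5 (chr1:89256189-89272860). GBP5 has 12 exons in its reference transcript and the others 11. GBP7 (chr1:89131742-89176009), on the same strand, lies within the cluster and overlaps GBP2 in GENCODE, but not in the RefSeq annotation. GBP6 (chr1:89364059-89388160) lies beyond GBP5 on the plus strand. These genes are paralogs of similar sequence, and a read that fits more than 1 of them can be divided between them by the authors' counting. Single levels, low ones most of all, are uncertain to that extent.

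Promoter sequences from RefSeq (GRCh38.p14) were found for 3 of the 5 genes, GBP1, GBP3 and GBP4, and for GBP6 and GBP7. They are shown because interferon-activated transcription factors act through short motifs near such start sites. Searched on both strands were the interferon-stimulated response element core (GAAA, any 2 bases, GAAA) and the gamma-activated site TTCNNNGAA, in the 250 bases before and 50 bases after the start. The lines below give the bases from 150 before to 20 after the start, 5′ to 3′ on the gene's strand, with motif matches in capitals, at chr1:89065189-89065358 for GBP1, chr1:89022847-89023016 for GBP3 and chr1:89198923-89199092 for GBP4, all read from the minus strand.
GBP1: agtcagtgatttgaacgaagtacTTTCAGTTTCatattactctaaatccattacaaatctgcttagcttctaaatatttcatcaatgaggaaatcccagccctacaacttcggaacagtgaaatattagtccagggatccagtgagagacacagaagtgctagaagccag
GBP3: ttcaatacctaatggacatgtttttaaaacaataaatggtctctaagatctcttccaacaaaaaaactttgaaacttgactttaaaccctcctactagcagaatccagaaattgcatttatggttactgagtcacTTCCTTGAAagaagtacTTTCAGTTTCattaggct
GBP4: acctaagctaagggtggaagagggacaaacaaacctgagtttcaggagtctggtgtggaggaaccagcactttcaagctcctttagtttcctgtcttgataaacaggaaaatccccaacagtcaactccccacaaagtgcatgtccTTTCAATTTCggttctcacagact

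The response element core was present in all 3 member promoters, on the opposite strand. Counted from the RefSeq starts, it began 127 bases before the start of GBP1, at base 3 of the GBP3 transcript and 4 bases before the start of GBP4. The match read TTTCAGTTTC in both GBP1 and GBP3 and TTTCAATTTC in GBP4. Of 35116 promoters in the table, 1255 (3.57%) held this core. The gamma-activated site was found only in GBP3 among the 3 (TTCCTTGAA, 15 to 7 bases before the start), against 7.66% of all promoters. The windows of GBP6 and GBP7 held neither set of letters. The GENCODE coordinates given above place the starts of GBP1 and GBP3 further upstream than RefSeq does. By those coordinates the bases shown for GBP1, and the matches in GBP3, lie inside the gene. Matches describe these windows only and do not show binding.

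GBP2 moved furthest of the 5. It is an interferon-inducible member that carries the prenylation motif. GBP2 was at 0.14, 0.1 and 0.18 TPM in the CTRL libraries, and at 0.09, 0.12 and 0.17 TPM in hnCD16. In FR1 it was at 362.94, 367.56 and 369.21 TPM, and in FR2 at 361.31, 345.37 and 353.1 TPM. All 6 FR libraries were thus high and all 6 others close to 0, with nothing between. The low side rests on few reads, with summed counts of 17 in CTRL (95% exact Poisson interval 9.9 to 27.2) and 16 in hnCD16 (9.15 to 26), which cover counting error only. The log2 fold change was 11.55 ± 0.244 (SE) for FR1 against hnCD16 and 11.48 ± 0.244 for FR2 against hnCD16. In FR1 and FR2 the gene held 14683.9 to 15319.49 counts per library. Because of the low side, the exact size is less certain than the direction.

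GBP5, which is known for promoting inflammasome assembly, was the highest member where GBP2 was low. Its TPM were 6.59, 6.89 and 7.45 in CTRL, and 7.22, 7.88 and 8.2 in hnCD16. FR1 libraries had 88.46, 93.13 and 88.29 TPM, and FR2 libraries 74.1, 70.02 and 75.26 TPM. GBP5 was thus present in every library and higher in FR1 and FR2, with no overlap. The log2 fold change was 3.61 ± 0.0505 for FR1 and 3.29 ± 0.0506 for FR2 against hnCD16, and 3.91 ± 0.0514 and 3.60 ± 0.0515 against CTRL.

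GBP4 lacks the prenylation motif. It was at 1.06, 1.53 and 1.43 TPM in CTRL and 1.32, 1.38 and 1.5 TPM in hnCD16. It reached 25.26, 25.16 and 25.17 TPM in FR1 and 22.02, 20.62 and 21.02 TPM in FR2. CTRL and hnCD16 overlapped, FR1 was above every FR2 library, and both stood well apart from the first groups. The log2 fold change against hnCD16 was 4.24 ± 0.0834 for FR1 and 3.98 ± 0.0837 for FR2.

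GBP1, the member that first binds bacterial lipopolysaccharide in coat assembly, was the lowest of the 5 in FR1 and FR2, whereas in CTRL and hnCD16 GBP2 was below it. It was at 0.84, 0.86 and 0.68 TPM in CTRL and 1.03, 1.12 and 0.86 TPM in hnCD16. FR1 had 7.86, 7.13 and 7.28 TPM and FR2 5.62, 6.1 and 5.74 TPM. The groups again split in the same way, and the log2 fold change against hnCD16 was 2.96 ± 0.149 for FR1 and 2.60 ± 0.151 for FR2.

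GBP3 lacks the prenylation motif as well. It was at 1.81, 1.94 and 3.69 TPM in CTRL and at 2.53, 2.43 and 3.06 TPM in hnCD16. FR1 libraries had 16.9, 18.96 and 18.61 TPM, and FR2 libraries 17.85, 15.47 and 18.73 TPM. CTRL replicate 3 stood above the other CTRL libraries, yet far below every FR library. The log2 fold change against hnCD16 was 2.86 ± 0.136 for FR1 and 2.78 ± 0.136 for FR2, the smallest in FR1 of the 5 genes. Against CTRL, the log2 fold changes of GBP1, GBP2, GBP3 and GBP4 were 3.43, 11.56, 3.22 and 4.45 in FR1, and 3.07, 11.49, 3.14 and 4.20 in FR2.

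**Figure D1:**
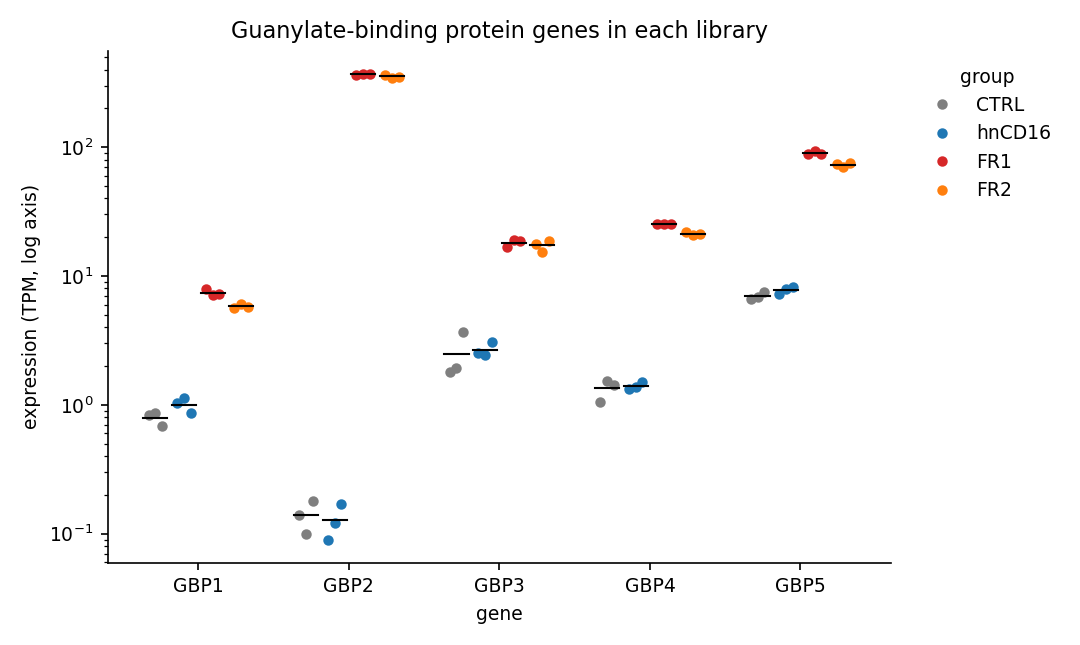
Expression in TPM (log axis) of GBP1 to GBP5 in each of the 12 libraries; points are libraries, coloured by group, and black lines are means of 3. GBP2 goes from under 0.2 TPM in CTRL and hnCD16 to between 345.37 and 369.21 TPM in FR1 and FR2, and the other 4 genes separate the same pairs of groups by smaller steps.

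The genes therefore changed rank. Levels per length followed the order GBP5, GBP3, GBP4, GBP1, GBP2 in all 6 CTRL and hnCD16 libraries, and GBP2, GBP5, GBP4, GBP3, GBP1 in all 6 FR libraries. In CTRL the ranges of neighbours in that order did not overlap, and the same held in hnCD16, FR1 and FR2. The summed TPM of the 5 genes was 11.7 ± 1.54 in CTRL and 13 ± 0.801 in hnCD16 (SD, n = 3). It was 507 ± 5.37 for FR1 and 471 ± 12 for FR2. GBP2 made up 1.19% of that sum in CTRL and 0.966% in hnCD16, but 72.3% in FR1 and 75% in FR2. GBP5 made up 59.8% and 59.9% in CTRL and hnCD16, and 17.7% and 15.5% in FR1 and FR2. GBP1 fell as a share from 6.9% in CTRL to 1.46% in FR1, although its level was higher there. GBP3 made up 20.7% in CTRL and 3.58% in FR1, and GBP4 11.4% and 4.97%. The spread of these shares between libraries was small beside the shift, as GBP2 ran from 0.738% to 1.34% over the CTRL and hnCD16 libraries and from 71.8% to 75.5% over the FR libraries.

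**Figure D2:**
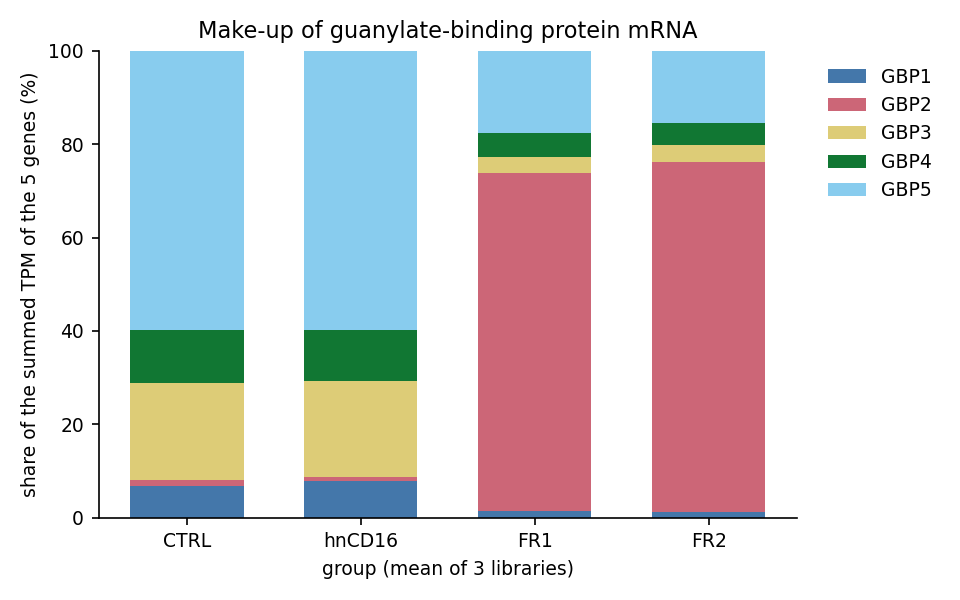
Share of each gene in the summed TPM of the 5 genes (%), as the mean of 3 libraries per group; each bar is 1 group. GBP5 is the largest part in CTRL (59.8%) and hnCD16 (59.9%), and GBP2 in FR1 (72.3%) and FR2 (75%).

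Each comparison was also set beside all 13657 genes tested after a filter on low counts, where called means a change of 1 or more on the log2 scale, up or down, and an edgeR adjusted p no higher than 0.05. All 5 members passed that filter, and GBP2 passed through FR1 and FR2, where it is high. All 5 were called, and higher, in FR1 against hnCD16, FR2 against hnCD16, FR1 against CTRL and FR2 against CTRL. Over all genes, 38.3%, 39.5%, 38% and 38.2% were called in these comparisons, and 18.7%, 19.6%, 18.3% and 18.7% were called as higher. The median log2 fold changes of the members were 3.61, 3.29, 3.91 and 3.60, against -0.01, -0.03, -0.03 and -0.04 over all genes. Nothing is read from these counts, since the genes were chosen on these values, and the 4 comparisons share their groups in pairs.

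Between hnCD16 and CTRL, 0 of 5 members were called, against 0.527% of all genes. All 5 genes overlapped between those groups, with TPM ratios from 0.905 for GBP2 to 1.26 for GBP1, and a median log2 fold change of 0.30. Between FR1 and FR2, 0 of 5 were called, against 1.93% of all genes. These groups differ by the 2B4 domain, but also in FCGR3A level (26.4 to 26.6 TPM in FR1, 47.9 to 52.2 TPM in FR2). They are separate expanded populations as well, and these differences cannot be told apart. FR1 was the higher of the pair for GBP1 (log2 fold change 0.36 ± 0.0971), GBP5 (0.31 ± 0.0452) and GBP4 (0.26 ± 0.0529), with no overlap of libraries. For GBP2 the difference was 0.06 ± 0.0433, also without overlap in TPM, and for GBP3 it was 0.08 ± 0.0959 with overlapping libraries. How many of all genes lack overlap was not counted, so nothing about the members is read from overlap. A missed threshold of this kind does not show that the receptors act alike.

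**Figure D3:**
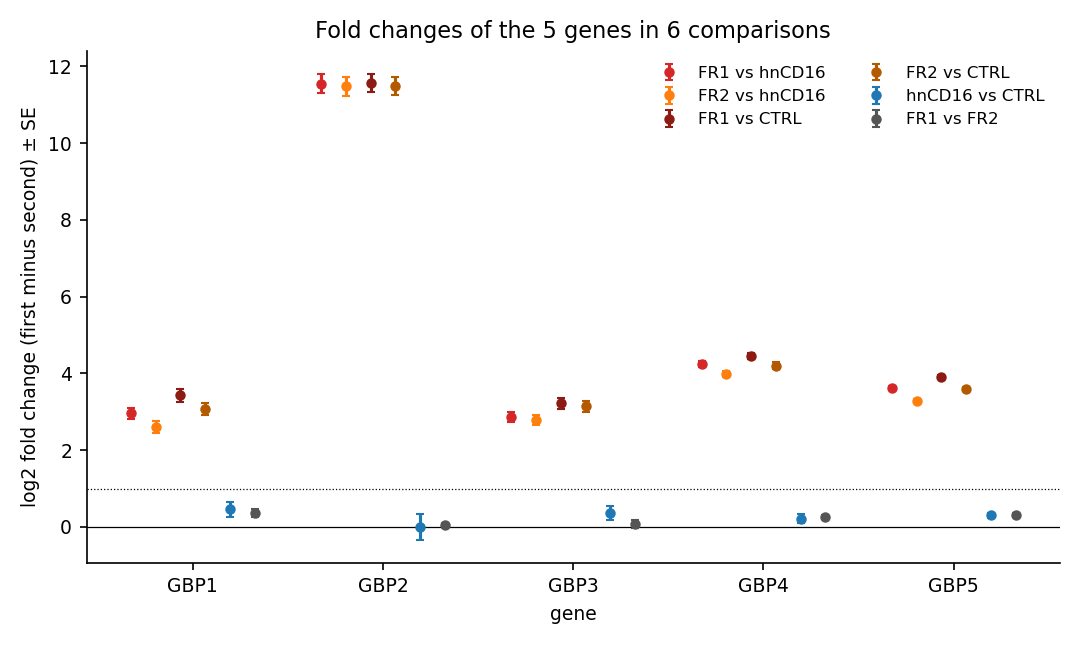
Log2 fold change of each gene (first group minus second) with its SE from the edgeR fit, for 6 comparisons; the dotted line marks 1, the fold threshold. The 4 that set an FR group against CTRL or hnCD16 lie between 2.60 and 11.56, and those of hnCD16 with CTRL and of FR1 with FR2 lie between 0.01 and 0.46.

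The other 2 genes of the family with values, GBP6 and GBP7, were low in all groups. GBP6 was at 0.44 to 0.82 TPM in CTRL and hnCD16 and 0.6 to 1.03 TPM in FR1 and FR2, and was not called in any of the 6 comparisons. Its largest log2 fold change was 0.92 ± 0.225 for FR2 against hnCD16 (adjusted p = 0.000997, edgeR), under the fold threshold. GBP7 had 0 counts in the CTRL libraries and 0 to 1 in those of hnCD16, while FR1 libraries held 2.03 to 3.04 counts and FR2 libraries 0 to 3.05. It did not pass the filter. With no filter beyond 1 count it was called in FR1 against CTRL (adjusted p = 0.0164) and FR2 against CTRL (adjusted p = 0.0255) but in neither FR group against hnCD16 (adjusted p = 0.084 and 0.127, edgeR). No fold is given for such counts. GBP1P1 was not analysed here.

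The choice of the 5 genes did not use how counts divide among transcripts. The table gives 1 transcript each for GBP2 and GBP4, 2 for GBP1, 3 for GBP5 and 10 for GBP3. Most GBP5 counts went to NM_052942, with 77.4% ± 11.3 in CTRL and 70.7% ± 13.9 in hnCD16, and with 79.2% ± 1.48 in FR1 against 73% ± 2.29 in FR2 (SD, n = 3). NM_001134486 took 19.3% to 22% of GBP5 in FR1 and 24.5% to 28.8% in FR2, which did not overlap. The relative log2 fold change of that transcript between FR1 and FR2 was -0.37 (adjusted p = 1 by edgeR over all transcripts). GBP1 counts were assigned to NM_002053 alone in 9 of 12 libraries. For GBP3, NM_018284 held 71.5% ± 6.18 in FR1 and 71.1% ± 7.44 in FR2, but between 0% and 86.9% in the 3 hnCD16 libraries, so assignment among its transcripts varied widely between replicates of low counts.

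Usage was tested where the gene had at least 20 counts in every library of both groups. No transcript of the family was called in any of the 6 comparisons, with 10 transcripts tested in FR1 against hnCD16, FR2 against hnCD16 and FR1 against FR2, and 8 in each of the others. The shares called over all transcripts were 1.01% for FR1 against hnCD16, 1.17% for FR2 against hnCD16, 1.14% for FR1 against CTRL, 1.19% for FR2 against CTRL, 0.0547% for hnCD16 against CTRL and 0.0453% for FR1 against FR2. At an unadjusted p under 0.05 there were 4 cases, all in GBP3 and all against CTRL. A change in transcript usage was thus not called. How large a change could have been found was not tested, so this is not evidence of its absence, least of all in GBP1 or GBP3.

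The interferon-γ pathway upstream of these genes was measured in the same fit. This list and those below were chosen with earlier results of these data known, so their shares called are a description. Genes named from the later lists were picked by their fold change in FR1 against hnCD16, so their p-values are no independent support. Of its 20 listed genes 19 were tested, and 11 were called in FR1 against hnCD16, with 10 higher and 1 lower (57.9%, against 38.3% of all genes). IFNG, the ligand, was at 0 to 0.16 TPM in CTRL and hnCD16 and at 325 to 373 TPM in FR1 and FR2, through which it passed the filter. IFNGR1, the binding chain of the receptor, was not called, with 33.6 ± 0.525 TPM in hnCD16 and 23.8 ± 1.44 TPM in FR1 (log2 fold change -0.42 ± 0.0621). IFNGR2, the signalling chain, was the gene that fell, from 1.35 to 2.13 TPM in hnCD16 to 0.05 to 0.18 TPM in FR1 (log2 fold change -3.08 ± 0.462, adjusted p = 5.14e-07), and it was low in all groups. JAK1 rose from 25.8 ± 2.02 to 54.1 ± 2.59 TPM (1.13 ± 0.0525, adjusted p = 1.07e-12), while JAK2 was at 4.1 ± 0.891 and 4.32 ± 0.0577 TPM (0.16 ± 0.115, adjusted p = 0.204).

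The same list had 12 called genes in FR2 against hnCD16 (10 higher, 2 lower), 11 in FR1 against CTRL and 11 in FR2 against CTRL (9 higher and 2 lower in both). Of the interferon regulatory factors, IRF1 was at 12.2 ± 0.693 TPM in hnCD16 and 23.3 ± 2.01 TPM in FR1, a difference under the fold threshold (0.72 ± 0.0684). IRF9 rose from 4.75 ± 0.445 to 16.7 ± 1.08 TPM (1.96 ± 0.0953, adjusted p = 9.52e-13). IRF8 had at most 12 counts in any library and was not tested. SOCS1, the feedback inhibitor of JAK signalling, rose from 0.25 to 0.62 TPM in hnCD16 to 30.7 to 41.3 TPM in FR1 (6.42 ± 0.43, adjusted p = 1.45e-14).

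Among other interferon-γ targets, 21 of 28 tested genes were called in FR1 against hnCD16, 19 higher and 2 lower (75%, against 38.3% of all genes). SAMHD1, a dNTP hydrolase that restricts viruses, rose from 0.383 ± 0.0252 to 50.1 ± 1.05 TPM (6.95 ± 0.133, adjusted p = 1.43e-20), and NLRC5, the transactivator of MHC class I genes, from 1.29 ± 0.0346 to 28.3 ± 1.15 TPM (4.92 ± 0.0846, adjusted p = 8.13e-20). The 2 that fell were APOL3, which lyses bacteria together with GBP1, from 12.7 ± 0.663 to 1.6 ± 0.225 TPM (-2.75 ± 0.132, adjusted p = 3.02e-13), and IRGM, an immunity-related GTPase, from 4.13 ± 0.741 to 1.84 ± 0.519 TPM (-1.18 ± 0.234, adjusted p = 0.000128). In FR2 against hnCD16 20 of the 28 were called, 18 of them higher, and 22 in each FR group against CTRL, 20 of them higher. Of these named genes, IRGM was not called in FR2 against hnCD16 (-0.79 ± 0.218).

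Type I interferon targets were split in direction. Of 30 tested genes 21 were called in FR1 against hnCD16, 12 higher and 9 lower (70%, against 38.3% of all genes). In FR2 against hnCD16 24 were called, 15 higher and 9 lower, in FR1 against CTRL 12 higher and 9 lower, and in FR2 against CTRL 14 higher and 8 lower. OASL rose from 0.08 to 0.44 TPM in hnCD16 to 44.3 to 50.9 TPM in FR1, and IFITM3 from 8.92 ± 1.96 to 186 ± 12.9 TPM (4.44 ± 0.147, adjusted p = 4.03e-16). CMPK2 went from 24.1 to 24.6 TPM in hnCD16 to 0 in all 3 FR1 libraries (adjusted p = 3.16e-16), and OAS3 from 3.79 to 4.44 TPM to 0.03 TPM or less (adjusted p = 4.25e-14). OASL passed the filter through FR1 and FR2, and CMPK2 and OAS3 through CTRL and hnCD16. High GBP mRNA thus went together with low mRNA of some interferon-inducible genes in the same libraries.

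Genes of processes in which guanylate-binding proteins take part were measured too. Of 14 tested inflammasome and defence genes 8 were called in FR1 against hnCD16, 6 higher and 2 lower (57.1%, against 38.3% of all genes). In FR2 against hnCD16 and in each FR group against CTRL 6 were called, 5 higher and 1 lower, and this 42.9% was near the shares of all genes (38% to 39.5%). The 8 became 6 with DESeq2, 5 with limma on log2(TPM + 1), and 2 of the 8 genes still tested when every library needed at least 10 counts. AIM2, a DNA sensor, rose from 0.113 ± 0.0814 to 81.6 ± 3.73 TPM (8.91 ± 0.46, adjusted p = 6.73e-19), and PIM1, a kinase that phosphorylates GBP1, from 0.393 ± 0.1 to 112 ± 4.62 TPM (8.20 ± 0.194, adjusted p = 1.93e-20). CASP4, the caspase that senses lipopolysaccharide on GBP1 coats, fell from 67.4 ± 1.65 to 2.19 ± 0.584 TPM (-4.87 ± 0.15, adjusted p = 3.21e-17). Of 8 prenylation enzymes, ICMT rose (1.36 ± 0.0587, adjusted p = 4.2e-13) and PGGT1B, a subunit of the enzyme that attaches geranylgeranyl groups, fell from 43 ± 4.07 to 3.84 ± 0.178 TPM (-3.14 ± 0.0696, adjusted p = 1.28e-17), and 6 were not called. In FR2 against hnCD16 1 of these enzymes was higher and 2 lower. These are 25% and 37.5% of the list, below the 38.3% and 39.5% of all genes.

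Across the 5 lists, 63 of 99 tested genes (63.6%) were called in FR1 against hnCD16 and 65 in FR2 against hnCD16. Against CTRL, 63 were called in FR1 and 64 in FR2. Over all genes, 38.3%, 39.5%, 38% and 38.2% were called in these comparisons. Because of how the lists were chosen, nothing is read from the excess over these shares. Between hnCD16 and CTRL 1 gene was called (1.01%, against 0.527% of all genes), SOCS3, with at most 7 counts in any of these libraries. Between FR1 and FR2 1 gene was called as well (1.01%, below the 1.93% of all genes). It was FNTB, the β subunit of farnesyltransferase (1.06 ± 0.266, edgeR adjusted p = 0.00391). Both were named after their values were seen.

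**Figure D4:**
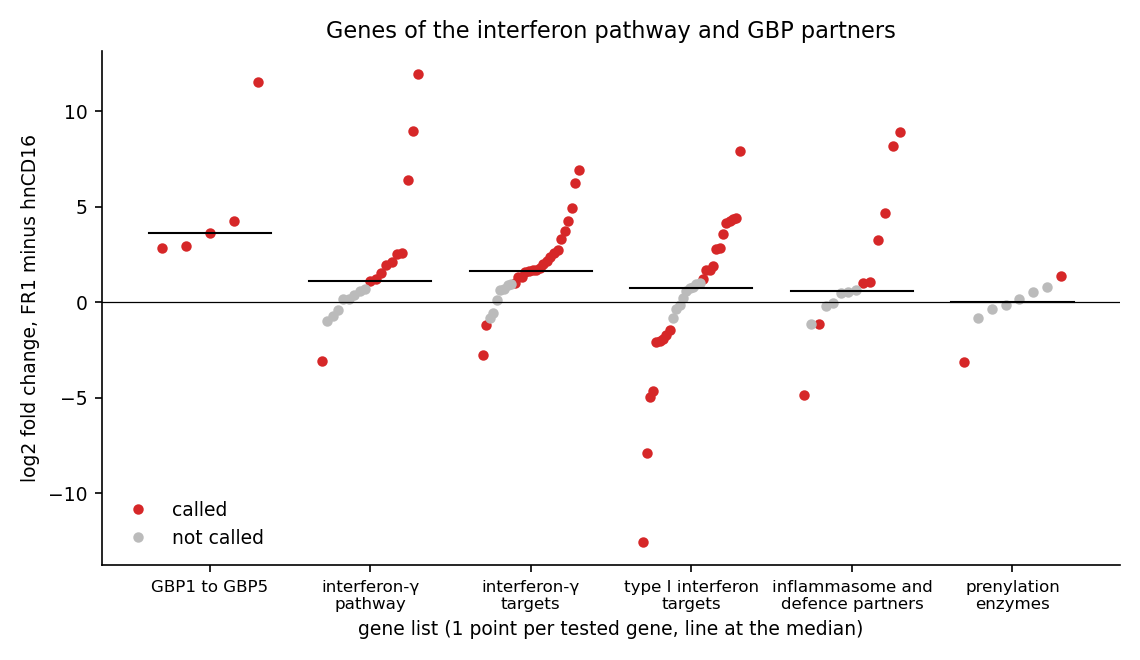
Log2 fold change of FR1 against hnCD16 for each tested gene of the family and of 5 related lists; red points were called, grey points were not, and lines are medians (3.61 for the members, 1.13, 1.67, 0.77, 0.58 and 0.03 for the lists from left to right). Interferon-γ pathway and target genes lie mostly above 0, type I interferon targets on both sides.

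Of genes annotated within 1 Mb of the cluster, 10 had values, all protein-coding, and 9 were tested. LRRC8C, a volume-regulated anion channel subunit, was the 1 gene called. It was called in the 4 comparisons that set an FR group against CTRL or hnCD16 and in neither of the others. This is 11.1% of the tested neighbours, below the 38% to 39.5% of all genes called in those 4. It was at 9.36 ± 0.832 TPM in CTRL and 10.2 ± 0.216 TPM in hnCD16, and at 40.9 ± 0.78 TPM with FR1 and 44.5 ± 2.18 TPM with FR2 (FR1 against hnCD16: 2.07 ± 0.0524, adjusted p = 2.01e-16). Its neighbours LRRC8B and LRRC8D, on either side, had log2 fold changes of 0.27 ± 0.072 and 0.35 ± 0.0536 in FR1 against hnCD16. On the GBP3 side, GTF2B was at 97.6 ± 0.295 TPM in hnCD16 and 63.9 ± 2.43 TPM in FR1 (-0.54 ± 0.0572), KYAT3 had a log2 fold change of 0.26 ± 0.0558, and RBMXL1 and PKN2 of 0.08 ± 0.0586 and -0.11 ± 0.103. ZNF326 stood at -0.24 ± 0.0647. The difference between FR and other libraries was thus large for GBP1 to GBP5 and LRRC8C and under the fold threshold for the other 8 tested genes, GBP6 among them.

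**Figure D5:**
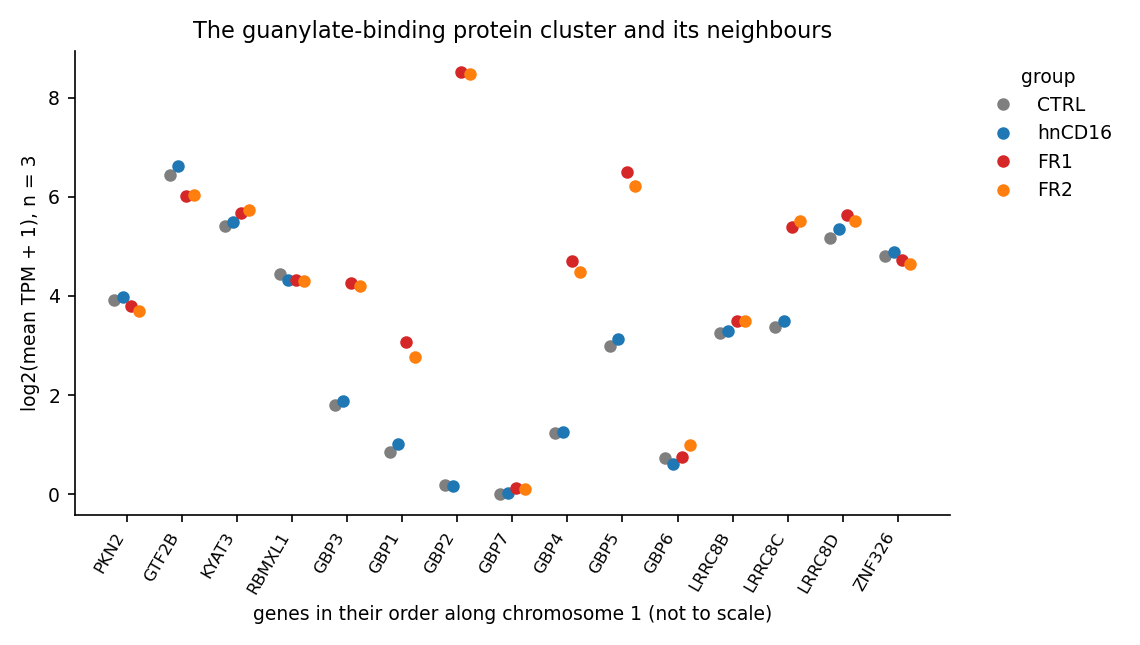
Level of genes in their order along chromosome 1, as log2 of the mean TPM of 3 libraries plus 1; points are groups, and positions are not to scale. FR1 and FR2 lie above CTRL and hnCD16 by more than the fold threshold for GBP3, GBP1, GBP2, GBP4, GBP5 and LRRC8C. They also lie above, by less than that threshold, for KYAT3, GBP6, LRRC8B and LRRC8D. GBP7 and GBP6 stay near the bottom in all groups.

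Likeness of pattern was described by the root mean square difference of centred log2(TPM + 1) over the 12 libraries, among 11596 genes with a mean of at least 1 TPM. The gene most like GBP2 was IFNG (difference 0.0799), followed by GZMH, a granzyme (0.182), with 290 ± 4.25 TPM in FR1 and 0.21 ± 0.135 TPM in hnCD16. For GBP5 they were STON2 (0.0579) and FLRT3 (0.0874), for GBP4 TNR (0.0863) and FLRT3 (0.0881), for GBP1 TLN2 (0.0988) and FOXP2 (0.102), and for GBP3 CLEC2D (0.147) and PPFIBP1 (0.153). These pairs depend on the pseudocount: with log2(TPM + 0.1), 1 of the 10 remained, GBP4 with FLRT3. The 12 libraries form 2 well separated sets, and a gene can be alike by that split alone.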

How the data were processed

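RNA-seq was analysed for 4 groups of cells, named as YT by the study, with 3 libraries each. Per the submitters' processing notes and the study's methods, ribosomal RNA was depleted (oligo(dT) beads are named too) and the authors used HISAT2 2.1.0, Bowtie2 2.3.4.3, RSEM 1.3.1 and DESeq2 1.4.5, and worked on GRCh38.p13. The deposited expected counts are RSEM estimates per gene and per transcript without normalization, and the deposited TPM values come from the same reads. Whether strand was used is not given in the sources used here. A further 80 value columns (such as averages and the authors' own comparisons) were not used.

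Here expected counts were rounded and tested with edgeR 4.0.16 (R 4.3.3), using TMM, filterByExpr by group and the quasi-likelihood test, in 1 fit of all 12 libraries, adjusted by Benjamini-Hochberg over 13657 genes in each of 6 comparisons. The thresholds are those of the study's methods. SE are Wald errors of that fit. Transcript usage was tested with diffSpliceDGE over 53005 transcripts. Both steps were tested on simulated data. Replicates came from the labels, and replicate pairs differed by more than sampling noise (chi-square per gene 2.06 to 12.3). DESeq2 1.42.0, limma 3.58.1 on TPM, other scalings and filters, the replicate block and left-out libraries were alternatives. Those for neighbouring genes were added after seeing the data. Members and lists were chosen with earlier results of these data known. The text names all GBP genes with values, 10 interferon-γ pathway genes (of which 1 is not reported here), the 2 highest and 2 lowest called genes of the other lists in FR1 against hnCD16 with a mean of at least 1 TPM, the 2 genes most like each member, the neighbouring genes and FCGR3A. Intervals cover counting error only. Figures used matplotlib 3.10.9. Protein sequences were not analysed here.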

Additional observations from a re-analysis of the deposited data

How the results depend on the processing

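All 5 members kept their direction in FR1 and FR2 against CTRL and hnCD16 under each of 21 alternatives. All 5 were called under each but 1: with at least 10 counts required in every library GBP2 was not tested and 4 were called. Over all genes, 27.6% to 39.9% were called in these comparisons under the alternatives. The members were chosen on these values, so nothing is read from their counts. Over these comparisons the log2 fold change of GBP2 ranged from 8.28 (limma on log2(TPM + 1), which compresses low levels) to 11.78, of GBP1 from 1.77 to 3.50, of GBP3 from 2.32 to 3.49, of GBP4 from 3.21 to 4.53 and of GBP5 from 3.08 to 3.94. Of 443 fold changes under alternatives, 378 moved by less than 1 SD between replicates, 65 moved more and 0 called ones reversed. The median log2 fold change of all genes reached -0.22 with library size alone (FR1 against CTRL) and -0.24 with limma on log2(TPM + 0.1) (FR2 against CTRL).

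Without the fold threshold, 1 member was called in hnCD16 against CTRL (43% of all genes) and 3 in FR1 against FR2 (36.2% of all genes), and list genes numbered 43 and 37. Of 9 tested neighbouring genes, 6 were then called in FR1 against hnCD16 and 8 in FR2 against hnCD16. Against CTRL there were 5 in FR1, 6 in FR2 and 6 in hnCD16. In the same order, 79.1%, 80.1%, 79.9%, 80.2% and 43% of all genes were called. With no filter beyond 1 count, 2 neighbouring genes were called in FR1 and in FR2 against CTRL, LRRC8C and GBP7. Of all genes, 33.3% and 33.9% were called there. Neighbouring genes called in FR2 against hnCD16 numbered 1 to 2 with libraries left out in turn, and 2 without FR2 replicate 2. The 1 list gene called in hnCD16 against CTRL became 0 with at least 10 counts in every library, with only those 2 groups fitted and with limma on log2(TPM + 1), and 1 to 2 with libraries left out, 2 being without CTRL replicate 3. The 1 list gene of FR1 against FR2 became 0 with library size only and with limma at either pseudocount, and 0 to 1 with libraries left out, 0 being without FR2 replicate 1. Of the 10 gene pairs most alike, 1 remained with log2(TPM + 0.1) (GBP4 with FLRT3). The cause of these moves was not tested, beyond fewer genes tested or a looser rule by construction.

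Deviations of same-numbered replicates from their group means were weakly correlated at most (-0.0719 to 0.171). The highest correlations were in hnCD16 against CTRL (0.0623 to 0.171). Differently numbered replicates were not compared, so whether equal numbers mark shared handling was not tested. With the replicate block, 5 members were called wherever an FR group was set against CTRL or hnCD16. Of all genes, 38.1% to 39.5% were called there. In the others 0 members were called, against 0.549% of all genes for hnCD16 against CTRL and 2.01% for FR1 against FR2. With this block 0 transcripts were called in usage. GBP2 rests on 16 and 17 counts in the low groups, which limits the precision of its fold change.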
